A study of Sus scrofa with 15 samples.

Results

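The second day of culture of pig granulosa cells was compared with the first. Granulosa cells derived from the ovarian follicles of pigs were the day 0 group, and cells kept in culture for 1, 2, 4 and 7 days were the other groups. The labels call the cultured cells dedifferentiating and those of day 7 dedifferentiated and grown to semiconfluence, and name no drug or hormone. Transcripts were measured on Affymetrix porcine genome arrays, 3 per day. The members are the 3 arrays of day 1 and the 3 of day 2, 6 of the 15 arrays in all, chosen by their labels, and all 23999 probe sets that are not array controls were tested. Each change on day 2 was then placed by what the same probe set had done between day 0 and day 1: it went back, went further or was new. The labels call the replicates biological, but no source used here ties an array to an animal or a culture. The p values therefore cover the spread between these 6 and the other arrays, which may be technical.

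Granulosa cells surround the oocyte and respond to follicle-stimulating hormone (FSH) and luteinizing hormone through the receptors FSHR and LHCGR. They make inhibin, whose alpha subunit is INHA, and turn androgens into estrogen with aromatase and HSD17B1. After ovulation they luteinize, a change in which they stop dividing and make progesterone through CYP11A1 and HSD3B1. On a culture dish, follicular cells spread, build actin bundles and lay down fibronectin and other matrix proteins. Because RNA of whole cultures was measured, fewer cells of a type and less RNA per cell cannot be told apart.

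Values are log2 intensities, so a change of 1 is a doubling of the signal, and each change is given with its standard error (SE) from limma and a Benjamini-Hochberg adjusted p over all probe sets. A probe set was called when that p was under 0.05 and the change at least 1 in size. The lower quartile of the arrays lay at 4.41 to 4.68, and a change that starts or ends near that level is likely a lower bound. Arrays of day 1 correlated at 0.975 to 0.994 with each other, and those of day 2 at 0.973 to 0.996. Replicate 1 of day 2 stood apart: of the 729 probe sets called on day 2, it was the nearest of the 3 day 2 arrays to the day 1 mean in 473 (64.9%). This was not particular to day 2. On the third principal component, an axis of spread between arrays (13.1% of the variance), replicate 1 stood apart on every day. It lay at 29.4 to 48.1 there, and the other arrays at -41.4 to -5.78. RNA quality was read from the signal at the 3′ end of actin less that at its 5′ end, which was 0.18, 0.84 and 1.01 in the day 1 arrays and 0.02, 0.65 and 0.68 in those of day 2. The days overlapped, but day 2 was lower in each of the 3 pairs of same-numbered arrays. Replicate 1 had the lowest value on every day (0.97, 0.07 and 0.19 on days 0, 4 and 7). The part of this measure in the results was not tested. For lys, a control added during labelling, the difference lay between 0.78 and 0.89 in day 1 and between 0.08 and 0.24 in day 2, without overlap. For dap, thr and phe, the other added controls read this way, the 2 days overlapped. Of 23 granulosa genes on a list, FST, an activin-binding protein, and the nuclear receptor NR5A2 had day 1 means of 11.2 each and INHA of 12.9, while the ovarian regulator FOXL2 lay at 5.58 to 5.92 on the 6 arrays.

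Between day 1 and day 2, 489 probe sets rose (2.04% of those tested) and 240 fell (1.00%), 729 in all (3.04%). Without the limit on size, 1461 (6.09%) passed the adjusted p. The median change over all probe sets was -0.02. Of the called probe sets, 152 changed by 4-fold or more and 366 carried 1 gene symbol. The 3 arrays of each day did not overlap in 722 of the 729, against 5043 of all 23999 (21.0%). The number of calls depended on single arrays. It was 478 without day 1 replicate 2, 465 without day 2 replicate 2, 451 without day 2 replicate 3 and 986 without day 2 replicate 1. With replicate 1 of every day left out, 1321 were called. For falls alone the count of 240 became 148 without day 1 replicate 2, 120 without day 2 replicate 2, 125 without day 2 replicate 3 and 403 without day 2 replicate 1.

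**Figure D1:**
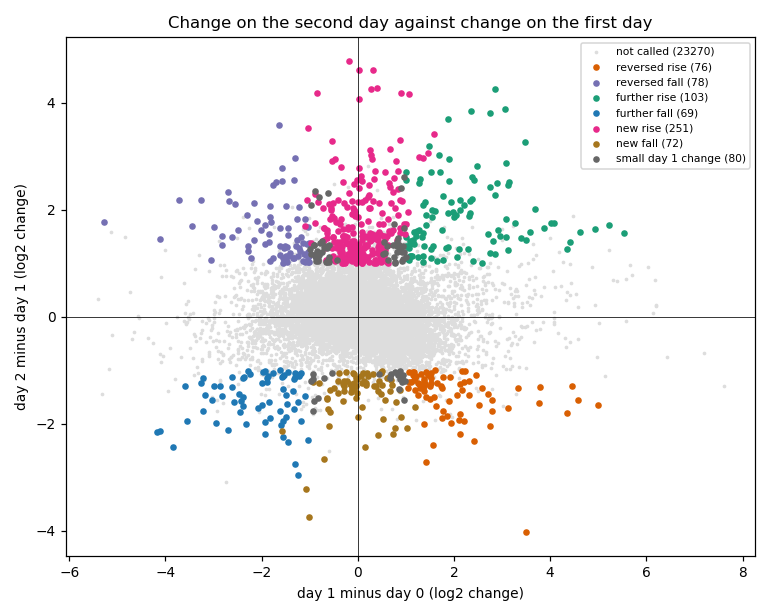
Change from day 0 to day 1 (horizontal axis) against change from day 1 to day 2 (vertical axis), both as log2 change, with 1 point for each of 23999 probe sets and colors for the classes of called probe sets. The 251 new rises sit above the middle of the plot, the 76 reversed rises at the lower right and the 78 reversed falls at the upper left; both axes use the day 1 arrays.

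Most of the day 1 response was neither undone nor extended past the call limits on day 2. Of 1553 probe sets that had risen on day 1 (6.47% of those tested), 76 (4.89%) went back, 103 (6.63%) rose further and 1374 (88.5%) were not called on day 2. Of 1448 that had fallen (6.03%), 78 (5.39%) went back, 69 (4.77%) fell further and 1301 (89.8%) were not called. The largest class on day 2 was new: 251 rises and 72 falls followed a day 1 change that had not passed the adjusted p. The remaining 80 calls followed a day 1 change that passed the adjusted p with a size under 1, and with replicate number as a block they were 132. Both changes use the day 1 arrays, so that an error in a day 1 mean adds to the reversed classes and takes from the further ones, and these counts are a description with no test. Reversed rises were 32 without day 2 replicate 2, 36 without day 2 replicate 3 and 138 without day 2 replicate 1. Reversed falls were 50 without day 2 replicate 3. Further falls were 37 without day 1 replicate 2, 41 without day 2 replicate 2 and 44 without day 2 replicate 3. New rises were 163, 160 and 152 without the same arrays in turn, and new falls 38, 29 and 30, or 117 without day 2 replicate 1. Calls with a small day 1 change were 52, 50 and 51 without day 0 replicate 3, day 1 replicate 2 and day 1 replicate 3, and 132 without day 2 replicate 1.

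Among the falls that went back were the hormone receptors FSHR, LHCGR and AMHR2. FSHR read 6.81, 6.66 and 7.55 on the day 0 arrays, 6.44, 5.20 and 5.41 on day 1, and 8.04, 8.28 and 8.39 on day 2. Every day 2 array was above every array of days 0 and 1. The rise on day 2 was 2.55 ± 0.42 (SE; adjusted p = 0.00312), and day 2 stood 1.23 above day 0 (adjusted p = 0.0445). That FSHR had first fallen rests on a change of -1.33 ± 0.42 (adjusted p = 0.0316), and without day 0 replicate 1 or 3, or day 1 replicate 2 or 3, its adjusted p was 0.0503 to 0.131. The rise on day 2 was called in all of these fits, with an adjusted p of at most 0.0208.

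LHCGR read 12.49, 12.46 and 11.24 on day 0, 9.16, 9.32 and 8.71 on day 1, and 10.11, 11.01 and 11.11 on day 2. The 3 days did not overlap, and day 2 lay between the others. The receptor rose by 1.68 ± 0.34 (adjusted p = 0.00955) after a change of -3.00 ± 0.34, so that 55.9% of the fall was undone. Without day 2 replicate 2 or 3 the adjusted p of the rise was 0.0527 and 0.0547. AMHR2, the receptor of anti-Müllerian hormone and chosen here after its values were seen, had means of 7.24 on day 1 and 8.52 on day 2, a rise of 1.29 (adjusted p = 0.0255). All of the 3 granulosa genes on the list that rose on day 2 were these receptors.

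RRM2, GGT1, SLC16A3, LPL and INSIG1 were other falls that went back. RRM2, a subunit of the enzyme that makes deoxynucleotides, read 9.24, 8.95 and 8.20 on day 0, 4.82, 4.93 and 5.52 on day 1, and 7.55, 6.88 and 7.38 on day 2. Its rise of 2.18 ± 0.39 (adjusted p = 0.00538) undid 58.8% of the fall. GGT1, which breaks down glutathione outside the cell, fell from a mean of 8.42 to 6.26 and read 8.59, 8.52 and 8.05 on day 2, a return of 98.5% with no overlap between days 1 and 2 (2.12 ± 0.22, adjusted p = 0.000149). SLC16A3, which exports lactate, rose by 1.91 ± 0.35 (adjusted p = 0.00599) and regained 83.2%. LPL, lipoprotein lipase, read 4.84, 5.41 and 5.33 on day 1 and 8.85, 7.74 and 6.56 on day 2, with replicate 1 the highest of the 3 here. Its rise was 2.52 ± 0.46 (adjusted p = 0.00603), and without day 1 replicate 1 its earlier fall had an adjusted p of 0.0540. INSIG1, a brake on cholesterol synthesis, rose by 1.62 ± 0.37 (adjusted p = 0.0206), a call lost without any 1 array of day 1, or without day 2 replicate 2 or 3, where the adjusted p reached 0.108.

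**Figure D2:**
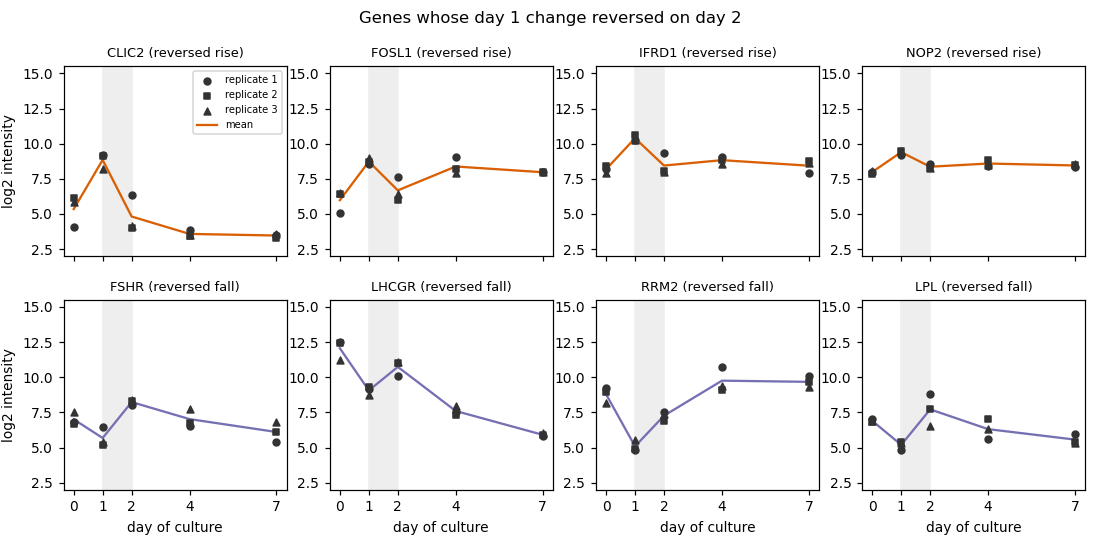
Log2 intensity on every array of days 0, 1, 2, 4 and 7 (points, 1 symbol shape for each replicate) with day means joined by lines, for 4 reversed rises and 4 reversed falls; the shaded band runs from day 1 to day 2. FSHR on day 2 lies above its day 0 arrays, LHCGR regained part of its fall before it fell again, and CLIC2 went back to near its day 0 level.

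FOSL1, IFRD1, IFRD2 and STAT5A were among the 76 rises that went back. FOSL1, a partner of JUN in the AP-1 transcription factor, read 5.09, 6.39 and 6.46 on day 0, 8.57, 8.66 and 8.95 on day 1, and 7.60, 6.02 and 6.42 on day 2. It fell by 2.05 ± 0.41 on the log2 scale (adjusted p = 0.0101), or 74.6% of its rise. Without day 2 replicate 2 or 3 the adjusted p was 0.0576 and 0.0528. Other FOSL1 probe sets changed by -0.95 and -0.80 and were not called. IFRD1, a co-regulator of transcription, read 10.29, 10.60 and 10.28 on day 1 and 9.33, 8.05 and 7.95 on day 2. Its related gene IFRD2 read 9.29, 9.14 and 9.57 on day 1 and 8.27, 6.94 and 7.19 on day 2. Both went back to near day 0, with returns of 88.0% and 101%, and for both the day 2 value of replicate 1 was the highest. Another bright IFRD1 probe set changed by -1.87 and was not called (adjusted p = 0.0874). STAT5A, which carries cytokine and prolactin signals, fell by 2.00 ± 0.41 (adjusted p = 0.0106). Its earlier rise of 1.38 ± 0.41 had an adjusted p of 0.0541 to 0.100 without day 0 replicate 1 or 2 or day 1 replicate 1. Its fall had one of 0.0563 and 0.0591 without day 2 replicate 2 or 3. Other STAT5A probe sets changed by -1.93 and -0.46 and were not called (adjusted p = 0.142 and 0.0956).

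CLIC2, a chloride channel protein, had the largest fall of day 2 among named genes. It read 4.09, 6.13 and 5.83 on day 0, 9.20, 9.15 and 8.18 on day 1, and 6.34, 3.97 and 4.15 on day 2. The change was -4.03 ± 0.59 (a 16.3-fold drop, adjusted p = 0.0014), and days 1 and 2 did not overlap. CSN1S2, a milk casein, rose from a day 0 mean of 3.60 to 6.98, 5.29 and 5.76 on day 1 and was at 3.69, 3.89 and 3.49 on day 2, levels at the bottom of the arrays, so its change of -2.32 ± 0.31 (adjusted p = 0.000822) is likely a lower bound.

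NPM3, a nucleolar chaperone, kept part of its day 1 rise. Its day 1 arrays read 10.16, 10.23 and 10.73 and its day 2 arrays 9.50, 8.16 and 8.20, a change of -1.75 ± 0.30 (adjusted p = 0.00415) that undid 62.8% of the rise. On a list of 21 ribosome biogenesis genes, 15 had risen on day 1, where 6.47% of all probe sets rose. All 21 changes on day 2 were negative, from -1.04 to -0.01 with a median of -0.57. Only NOP2, an rRNA methyltransferase, passed the test (-1.04 ± 0.15, adjusted p = 0.00117), 1 of 21 against 1.40% of all genes called lower with 1 probe set per symbol. Without day 1 replicate 2 or 3 or day 2 replicate 2 the size of its change was under 1 (-0.98 to -0.99). Of 32 ribosomal proteins and translation factors none was called, where 4.36% of all genes were called in either direction. Their median change was -0.07.

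The extent of the return was read as the share of the day 1 change that day 2 undid. Reversed rises returned a median of 86.1% of the day 1 change (quartiles 62.7% and 99.8%), and reversed falls 87.6% (70.1% and 113%). A reversed call needs a day 2 change of at least 1 in size, and the median day 1 changes were only 1.69 and -1.57. An error in a day 1 mean enters both changes and can move the share toward a full return. The shares and the closeness to day 0 are thus partly set by the rule. Against day 0, 17 of 76 reversed rises were still called higher on day 2, 58 lay within 1 of day 0 and 1 was called lower. Of 78 reversed falls, 11 were still called lower, 62 lay within 1, 4 were called higher and 1 was in none of these groups.

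INHA, HSD17B1 and NR5A2 dropped on day 1 and went on dropping. INHA read 14.37, 14.38 and 14.04 on day 0, 13.65, 12.79 and 12.41 on day 1, and 10.97, 10.03 and 9.62 on day 2. No 2 of these days overlapped, and the change on day 2 was -2.74 ± 0.35 (adjusted p = 0.000635). Its day 1 change of -1.31 ± 0.35 had an adjusted p of 0.0718 without day 1 replicate 3. HSD17B1, which makes estradiol from estrone, read 8.97, 10.26 and 8.99 on day 1 and 7.37, 7.58 and 6.86 on day 2, a change of -2.13 ± 0.33 (adjusted p = 0.00201) after an earlier one of -4.11 ± 0.33. NR5A2, a nuclear receptor needed for ovulation, fell by 1.95 ± 0.33 (adjusted p = 0.00356) in its brightest probe set and fell by 2.00 ± 0.49 in another, whose call was lost without day 1 replicate 1 or 2 or day 2 replicate 2 or 3 (adjusted p of up to 0.142). A probe set named for the aromatase CYP19A3 fell by 2.15 ± 0.42 (adjusted p = 0.00791), but no other probe set of that name was called. Another bright CYP19A3 set, with means of 8.71 on day 1 and 8.91 on day 2, changed by 0.20 ± 0.20 (adjusted p = 0.738). The remaining sets changed by -1.44 (adjusted p = 0.142) to 0.06. Pigs carry near-identical aromatase genes, so which of them the called probe set measured is uncertain. The brightest CYP19A1 probe set was near 5 on both days and changed by -0.30 ± 0.19 (adjusted p = 0.501), while a dim one rose by 1.55.

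On the list of 23 granulosa genes, 3 rose and 3 fell on day 2, 6 of 23 against 4.36% of all genes with 1 probe set per symbol, and the list's median change was -0.26. The 3 that rose were reversed falls and the 3 that fell were further falls. Without day 2 replicate 2 or 3, 1 rose. Other members moved less than the test could call: FST changed by -0.34 ± 0.21 (adjusted p = 0.478), AMH, anti-Müllerian hormone, by 0.21 ± 0.27 (adjusted p = 0.839) and FOXL2 by -0.04 ± 0.14 (adjusted p = 0.953).

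In steroid production HSD3B1 went further up. It read 7.84, 7.27 and 8.03 on day 1 and 9.85, 10.27 and 10.61 on day 2, a rise of 2.53 ± 0.43 (adjusted p = 0.00376), and the 2 days did not overlap. POR, which passes electrons to the steroid-making P450 enzymes, fell by 1.64 ± 0.37 (adjusted p = 0.0197). That call was lost without day 1 replicate 1 or day 2 replicate 2 or 3, with an adjusted p of up to 0.0923. CYP11A1, which starts steroid synthesis from cholesterol, read 12.15, 9.44 and 9.15 on day 1 and 11.51, 11.39 and 11.38 on day 2. Its day 1 arrays disagreed, with replicate 1 above all of day 2, and the change of 1.18 ± 0.71 was not called (adjusted p = 0.462); it was called with replicates 2 and 3 only. STAR, which brings cholesterol into mitochondria, lay near 4.7 on both days. Of the 16 measured genes of steroid production, HSD3B1 rose and HSD17B1 and POR fell, against 4.36% of all genes called in either direction.

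Genes of mitosis fell again on day 2. Of 15 mitosis genes, 14 had fallen on day 1, where 6.03% of all probe sets fell. On day 2, 7 fell further and none rose, against 1.40% of all genes called lower, and the list's median change was -1.04. TOP2A, which untangles DNA, read 11.89, 11.35 and 11.31 on day 0, 8.73, 8.98 and 9.10 on day 1, and 7.45, 7.03 and 7.57 on day 2, with no overlap (a change of -1.58 ± 0.31, adjusted p = 0.00859). NEK2, a centrosome kinase, fell by 1.64 ± 0.24 (adjusted p = 0.00128), UBE2C, which helps to end mitosis, fell by 1.59 ± 0.30 (adjusted p = 0.00714) and CDC20, an activator of the anaphase-promoting complex, fell by 1.22 (adjusted p = 0.0122). The list's count was 3 when day 1 replicate 2 or 3, or day 2 replicate 2, was left out, and its median stayed between -1.23 and -0.78 under all settings tried. Of 14 DNA replication genes, 10 had fallen on day 1, against the same 6.03% of all probe sets. On day 2 RRM2 rose (2.96% of all genes were called higher) and none fell, near the 1.40% called lower. Their median change was 0.41. PCNA, the sliding clamp of DNA polymerase, read 8.13, 7.99 and 8.21 on day 1 and 9.03, 8.41 and 8.76 on day 2. The arrays of PCNA did not overlap, but its change of 0.63 ± 0.21 was not called (adjusted p = 0.103). Whether the lists differ from each other was not tested.

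Other further falls were among the largest of day 2. MOBP, known as a myelin protein, read 8.42, 8.26 and 8.21 on day 1 and 5.42, 5.45 and 5.17 on day 2, a change of -2.95 ± 0.15 (adjusted p = 3.27e-07) with little spread. Its other probe sets had means in the dim range on both days, and none was called (changes of -0.98 to 0.12). ACSL6, which activates long fatty acids, read 7.64, 6.03 and 4.97 on day 1 and 4.16, 3.71 and 3.47 on day 2. Its change of -2.43 ± 0.47 (adjusted p = 0.00752) ended in the dim range. ATF3, a stress-induced transcription factor, fell by 2.31 ± 0.34 (adjusted p = 0.00163). Its day 1 change of -1.04 ± 0.34 passed the test narrowly (adjusted p = 0.0386) and had an adjusted p of 0.104 to 0.172 without day 0 replicate 2 or 3 or day 1 replicate 2 or 3. With FOSL1, ATF3 made up the 2 of 21 immediate early and serum response genes that changed on day 2, both lower, against 1.40% of all genes called lower with 1 probe set per symbol. That count was 1 without day 2 replicate 2 or 3.

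FN1, ACTA2 and ITGB3 were among the 103 probe sets that rose on day 1 and rose further. FN1, fibronectin, read 4.98, 6.34 and 5.78 on day 0, 9.30, 8.56 and 9.64 on day 1, and 11.76, 12.74 and 12.80 on day 2. These days did not overlap, and the second rise of 3.27 ± 0.36 (9.62-fold, adjusted p = 0.000216) was close to the first of 3.47 ± 0.36. ACTA2, smooth muscle actin, read 10.20, 8.92 and 8.98 on day 1 and 12.28, 12.42 and 12.49 on day 2 (3.03 ± 0.32, adjusted p = 0.000157). ITGB3, an integrin chain that binds fibronectin and vitronectin, read 7.67, 7.96 and 8.56 and then 10.13, 10.97 and 10.95 (2.62 ± 0.26, adjusted p = 0.000101). SHAS2, listed as a synonym of the hyaluronan synthase Has2, rose by 2.71 ± 0.30 (adjusted p = 0.000247). LAMB1, a laminin chain, had made most of its climb on day 1 (4.94 ± 0.23) and added 1.64 ± 0.23 on day 2 (adjusted p = 0.00101). TAGLN, or transgelin, which binds actin filaments, likewise added 1.27 ± 0.23 (adjusted p = 0.00599) to 4.35. STC1, the glycoprotein stanniocalcin, rose in both of its bright probe sets, by 3.70 ± 0.45 (adjusted p = 0.000431) as a further rise and by 4.16 ± 0.65 (adjusted p = 0.00219) as a new one.

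Of 24 actin cytoskeleton genes, 12 had risen on day 1, where 6.47% of all probe sets rose. On day 2, 4 rose (ACTA2, TPM2, TAGLN and CNN1), against 2.96% of all genes called higher, and the median change was 0.34. CNN1 was chosen for naming with the rest of the list and was not called without day 1 replicate 2 or day 2 replicate 3, with an adjusted p of up to 0.0811. Of 14 integrin and focal adhesion genes, 8 had risen on day 1, against the same 6.47% of all probe sets. On day 2 ITGB3 alone rose, against 2.96% of all genes called higher, with a list median of 0.44. With replicate number as a block 2 of the 14 rose. RGS5, a brake on G protein signals that had gained 6.19 ± 0.71 on day 1, changed by 0.69 ± 0.71 (adjusted p = 0.758). SGK1, a serum-induced kinase that had gained 5.39 ± 0.27, changed by 0.66 ± 0.27 (adjusted p = 0.207).

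**Figure D3:**
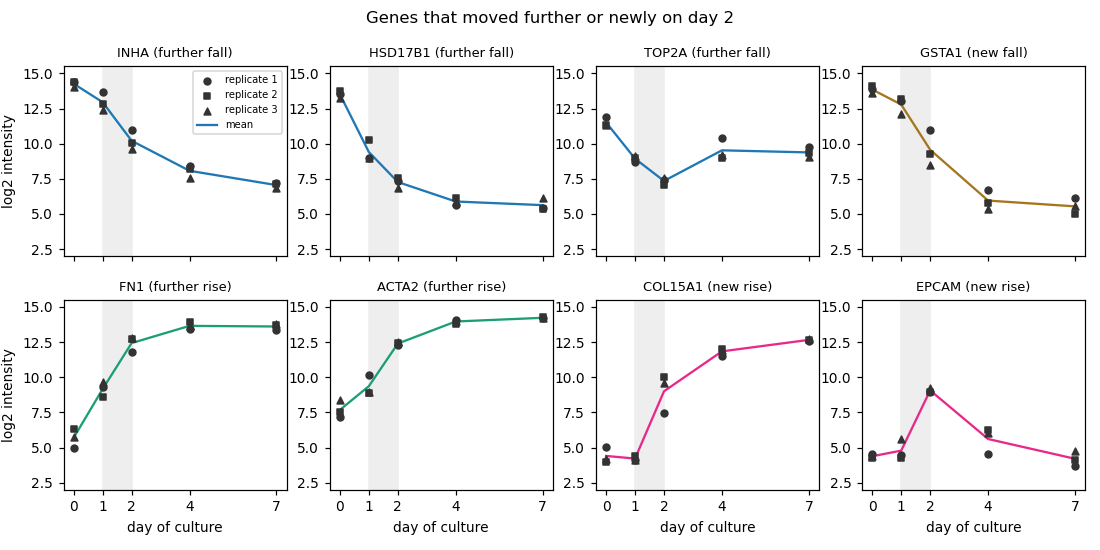
Log2 intensity on every array of days 0, 1, 2, 4 and 7 (points, 1 symbol shape for each replicate) with day means joined by lines, for genes that moved further (INHA, HSD17B1, TOP2A, FN1, ACTA2) or newly (GSTA1, COL15A1, EPCAM) on day 2; the shaded band runs from day 1 to day 2. COL15A1 left the dim range on day 2 and kept rising, while EPCAM was high on day 2 and back near its start by day 7.

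New rises held the largest changes of day 2, and 69 of the 251 were 4-fold or more. In 47 of them the day 1 mean lay in the dim range, so that their folds are likely lower bounds. COL15A1, a collagen of basement membranes, read 4.10, 4.42 and 4.13 on day 1, as low as on day 0, and 7.44, 10.01 and 9.56 on day 2. The rise of 4.79 ± 0.49 (27.6-fold, adjusted p = 0.00013) was smallest in replicate 1. NID2, which links laminin to collagen, read 5.34, 4.81 and 5.72 and then 7.95, 10.45 and 10.03 (4.18 ± 0.48, adjusted p = 0.000304). TRH, the thyrotropin-releasing hormone precursor, read 5.02, 4.36 and 5.45 and then 8.33, 10.17 and 10.17 (4.62 ± 0.56, adjusted p = 0.00043). In each of these 3 genes replicate 1 of day 2 was the lowest of its day and above every array of day 1. SFRP1, a secreted inhibitor of Wnt signals, read 3.21, 3.24 and 3.83 on day 1 and 5.36, 9.07 and 9.67 on day 2. Its rise of 4.61 ± 0.99 (adjusted p = 0.0141) was not called without day 1 replicate 2 or day 2 replicate 2 or 3 (adjusted p = 0.0553 to 0.0756). A brighter probe set of SFRP1 changed by 2.82 ± 0.83 and was not called (adjusted p = 0.0653).

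A pair of epithelial genes rose newly. EPCAM, an epithelial adhesion molecule, read 4.50, 4.27 and 5.58 on day 1 and 8.96, 8.97 and 9.27 on day 2 (4.28 ± 0.42, adjusted p = 0.000101), alike on all day 2 arrays. KRT19, a keratin, read 4.47, 4.17 and 4.58 and then 7.65, 9.21 and 8.58 (4.07 ± 0.55, adjusted p = 0.00087). On the list of 16 epithelial junction and keratin genes these 2 rose, and 1 fell: MAL2, a trafficking protein of polarized cells, fell by 1.95 ± 0.29 (adjusted p = 0.0015) after a change of -3.54 ± 0.29. E-cadherin, CDH1, stayed in the dim range on both days (means of 4.62 and 4.30).

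RGCC, a cell cycle regulator induced by complement, rose by 3.52 ± 0.38 (adjusted p = 0.00018), with all day 2 arrays at 8.41 to 8.63. It counts as new because a change of -1.04 ± 0.38 on day 1 missed the threshold (adjusted p = 0.0599). With replicate number as a block, or without day 0 replicate 1 or day 1 replicate 1 (adjusted p = 0.0330 and 0.0488), that fall passed and RGCC was a reversed fall. SPP1, osteopontin, read 5.41, 4.63 and 5.94 and then 8.41, 7.33 and 10.51 (3.42 ± 0.69, adjusted p = 0.0104). Its day 1 rise of 1.59 ± 0.69 passed the test with the block and without day 2 replicate 3, where it was a further rise, and without day 1 replicate 2 the day 2 rise had an adjusted p of 0.0541. ADAMTS1, a protease that cuts the proteoglycan versican, rose by 1.86 ± 0.31 (adjusted p = 0.00364) to 10.89 to 11.01 on the 3 arrays of day 2.

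Of 20 genes of fibrillar and provisional matrix, 6 rose and none fell on day 2, against 2.96% of all genes called higher, with a median change of 0.92. Besides FN1, the named members were DCN, TNC and POSTN. DCN, the small proteoglycan decorin, read 5.25, 5.20 and 5.46 on day 1 and 6.95, 8.81 and 9.54 on day 2 (3.13 ± 0.73, adjusted p = 0.0215). The days did not overlap, and the call was lost without any 1 array of day 1 or without day 2 replicate 2 or 3 (adjusted p = 0.0533 to 0.112). TNC, tenascin C, rose by 2.97 ± 0.51 (adjusted p = 0.00427), as a further rise with the block and in 3 of 9 fits that left out an array (replicate 3 of day 0, replicate 2 of day 1 or replicate 1 of day 2). POSTN, periostin, rose by 2.47 ± 0.57 (adjusted p = 0.0207) and was not called in 4 of the 9 fits that left out an array (day 1 replicate 1 or 2, day 2 replicate 1 or 3), with an adjusted p of up to 0.0841. The list's count was 4 without day 1 replicate 1 or 2 or day 2 replicate 3, and 10 with the block. Of 6 basement membrane genes, COL15A1, NID2 and LAMB1 rose, in every fit that left out an array. Among 20 proteases and inhibitors 5 rose and none fell, with MMP2, a gelatinase, up by 2.04 ± 0.33 (adjusted p = 0.00268).

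The 72 new falls had a median day 1 level of 8.54, and 14 of them ended in the dim range. GSTA1, a glutathione transferase, read 13.05, 13.16 and 12.15 on day 1 and 10.95, 9.26 and 8.49 on day 2, with no overlap (a change of -3.22 ± 0.53, adjusted p = 0.0033). Its day 1 change of -1.07 ± 0.53 was not called (adjusted p = 0.18), and with replicate number as a block it was, which made GSTA1 a further fall. A brighter probe set of GSTA1 changed by -2.51 ± 0.83 on day 2 and was not called (adjusted p = 0.103). PEG10, an imprinted gene derived from a retroelement, read 12.72, 11.42 and 11.12 and then 10.28, 8.78 and 9.61 (a change of -2.19 ± 0.41, adjusted p = 0.00683). RHOB, a small GTPase of the cytoskeleton, read 12.64, 12.16 and 11.80 and then 11.04, 9.92 and 9.88 (a change of -1.92 ± 0.34, adjusted p = 0.00534). In these 3 genes replicate 1 was the highest array of day 2. Other RHOB probe sets changed by -1.51, -1.73 and -0.63 and were not called (adjusted p = 0.359, 0.114 and 0.0461), the last for its size. Other PEG10 probe sets changed by -0.71 and -0.29 and were not called. ABCB1, a drug efflux pump, fell by 2.44 ± 0.60 (adjusted p = 0.0275), and JAG1, a Notch ligand, fell by 2.20 ± 0.49 (adjusted p = 0.0169). ABCB1 was not called without day 1 replicate 1 or 2 or day 2 replicate 2 or 3 (adjusted p = 0.0831 to 0.137). Its other probe sets, in the dim range on both days, changed by 0.24 and -0.73 and were not called. JAG1 was not called without day 1 replicate 2 or 3 or day 2 replicate 2 or 3 (adjusted p = 0.0607 to 0.0882).

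Glycolysis and genes that respond to low oxygen rose. Of 23 genes, 10 rose and none fell on day 2, against 2.96% of all genes called higher, with a median change of 0.76. By class, 4 of the 10 were reversed falls, 3 were new, 1 was a further rise and 2 had a small day 1 change. LDHA, which turns pyruvate into lactate, read 11.03, 10.93 and 11.05 on day 1 and 12.83, 12.35 and 12.29 on day 2 (1.49 ± 0.23, adjusted p = 0.00201); with the block its day 1 change counted as small. HK1, hexokinase, rose by 1.34 ± 0.25 (adjusted p = 0.00712). ANKRD37, a target of hypoxia-inducible factor, rose by 2.36 ± 0.26 (adjusted p = 0.000206), beside the lactate exporter SLC16A3. CA9, another target of that factor, changed by 0.07 and ADM, a peptide hormone, by -1.03 without passing the test. The count was 7 to 10 with an array left out.

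Chaperones of the endoplasmic reticulum rose. Of 17 genes, 8 rose and none fell, against the same 2.96%, with a median change of 1.04. On day 1, 4 of the 17 had fallen, where 6.03% of all probe sets fell. SDF2L1, a partner of the chaperone BiP, read 5.68, 5.21 and 5.65 on day 1 and 7.73, 7.81 and 7.96 on day 2 (2.32 ± 0.19, adjusted p = 2.87e-05). PDIA3, which forms disulfide bonds, read 11.59, 11.40 and 11.36 and then 13.06, 12.63 and 12.70 (1.35 ± 0.17, adjusted p = 0.000629). CRELD2, an endoplasmic reticulum stress gene, regained 75.4% of its day 1 fall (1.39 ± 0.19, adjusted p = 0.00107). For none of these 3 genes did the days overlap, and the list's count was 6 to 10 with an array left out. Cytosolic heat shock genes (0 of 18 called), proteasome subunits (0 of 27) and the respiratory chain (0 of 24) had medians of 0.00, -0.03 and 0.01. Of all genes 4.36% were called in either direction. Of 22 lysosome and autophagy genes 4 rose, CTSH, a cathepsin, by 1.41 ± 0.17 (adjusted p = 0.00043), with a list median of 0.52, and the count was 2 without day 1 replicate 2 or 3 or day 2 replicate 2 or 3.

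**Figure D4:**
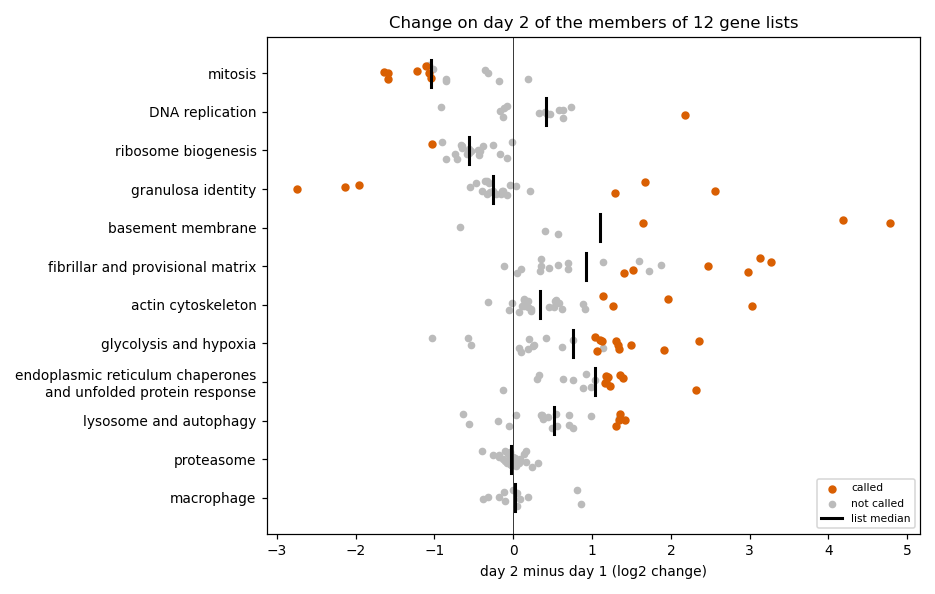
Change from day 1 to day 2 (log2, horizontal axis) of every measured member of 12 gene lists, with called members in orange, other members in gray and a black bar at each list's median. Mitosis lies to the left (median -1.04), glycolysis (0.76), chaperones of the endoplasmic reticulum (1.04) and matrix (0.92) to the right, and the proteasome and macrophage lists around 0.

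Markers of other cells that a follicle preparation can hold were read beside these changes. None of 12 macrophage, 10 lymphocyte and granulocyte, 4 red blood cell and 6 oocyte markers was called, where 4.36% of all genes were. Lists this small would hold few calls at that share. Of these markers 6, 7, 1 and 2 in turn were in the dim range on both days, where a change could be missed. The summed level of a list is the log2 of its summed intensities. For macrophages it lay between 8.13 and 8.46 in the day 1 arrays and between 8.31 and 8.55 in those of day 2, and the leukocyte marker PTPRC was in the dim range (means of 3.68 and 3.73). Of 11 theca and stroma markers, 4 rose (ACTA2, DCN, LHCGR and PDGFRB), where 2.96% of all genes were called higher and 1.40% lower, and their summed level went from 11.5 to 11.9 on day 1 to 13.2 to 13.6 on day 2. That count was 1 without day 2 replicate 2 or 3. Of 9 smooth muscle and pericyte markers, 3 rose (ACTA2, CNN1 and PDGFRB), and the summed level went from 13.2 to 13.4 to 14.2 to 14.5. That count was 1 without day 1 replicate 2 or day 2 replicate 3. Among other members, the theca enzyme CYP17A1 had like means on both days (5.09 and 5.11). The stroma marker TCF21 (4.39 and 4.34) and the pericyte marker MCAM (4.17 and 4.06) were in the dim range, where a change could be missed. These lists share members with the actin, matrix and granulosa lists, and their part in the rises of matrix and contractile genes was not tested. Of 13 endothelial markers, ERG rose and TIE1 and FLT1 fell (4.36% of all genes were called in either direction), while CDH5 and KDR were in the dim range. ERG was not called without day 1 replicate 2 or day 2 replicate 1 or 3 (adjusted p of up to 0.0855), nor FLT1 without day 1 replicate 1, where its change was -0.96.

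**Figure D5:**
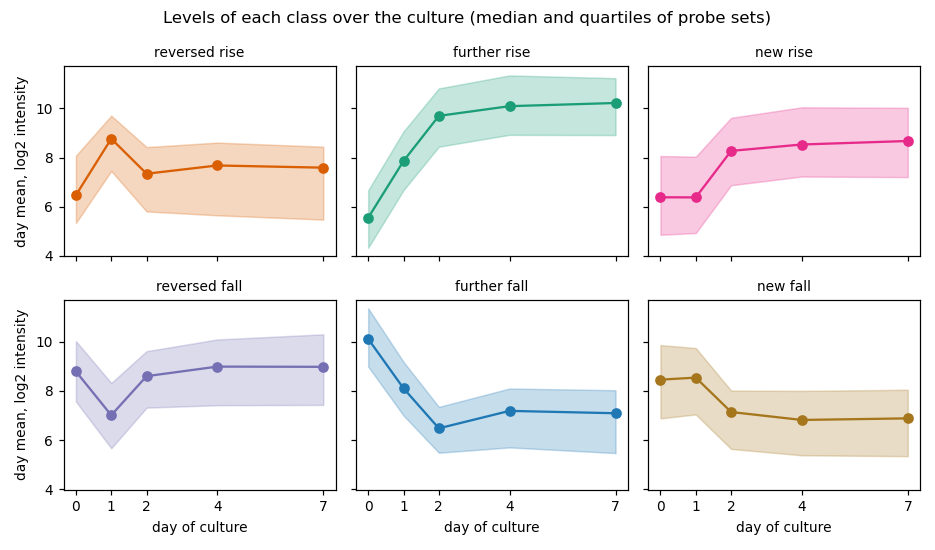
Median (points) and quartiles (bands) of the day means of the probe sets in 6 classes, in log2 intensity, on days 0, 1, 2, 4 and 7. The median of new rises was 6.38 on day 1, 8.27 on day 2 and 8.68 on day 7, and that of further falls 8.11, 6.48 and 7.09.

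Most changes of day 2 were still there on day 7. Of the 489 probe sets that rose on day 2, 360 (73.6%) were called higher on day 7 than on day 1, and of the 240 that fell, 161 (67.1%) were called lower. Over all probe sets 5.73% and 3.31% were called so, and both comparisons use the day 1 arrays, so no test was made. From day 2 to day 4, 18 of the 489 rises (3.68%) were called lower, against 0.538% of all probe sets, and 31 of the 240 falls (12.9%) called higher, against 2.00%. Here the comparisons share the day 2 arrays. Replicate 2 of day 4 had the largest actin difference between 3′ and 5′ ends of all arrays (2.12, against 0.07 and 0.63 in the other day 4 arrays). No fit of day 4 left it out, and its part in these changes was not tested. By class, the largest such share was that of the further falls, 20 of 69 (29.0%).

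Those genes that turned back by day 4, chosen after their values were seen, included hormone receptors and mitosis genes. EPCAM fell by 3.46 from day 2 to day 4 (adjusted p = 0.000357), LHCGR fell by 3.14 (adjusted p = 0.000143) and AMHR2 fell by 1.75 (adjusted p = 0.00489), while the change of FSHR, -1.21, did not pass (adjusted p = 0.158). TOP2A rose by 2.18 (adjusted p = 0.00114) and UBE2C by 2.28 (adjusted p = 0.000629). Of the 15 mitosis genes, 12 were called higher on day 4 than on day 2, as were 8 of the 14 DNA replication genes. Over all probe sets 2.00% were called so. FOSL1 rose again by 1.70 (adjusted p = 0.0348) to a day 4 mean of 8.38. INHA and HSD17B1 did not turn: their day 7 means of 7.05 and 5.63 were below those of day 2.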

How the data were processed

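The authors deposited log2 intensities, 1 for each probe set and array, made with RMA (robust multi-array averaging) according to the submitters' processing notes, with no version named. Per the labels' protocols, 3′-amplified, biotin-labelled target was hybridized. Of 24123 probe sets, 124 controls served as quality measures only. Of the 23999 tested, 10069 had 1 symbol (6765 symbols, from the array annotation), 198 had several and 13732 had none; the last 2 groups were counted but not named. No genome was used.

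A linear model with 1 mean per day was fitted over the 15 arrays (limma 3.58.1 under R 4.3.3, eBayes, 10 residual degrees of freedom), and p values were adjusted by Benjamini-Hochberg over all probe sets. A reversed or further change was called in both the day 1 minus day 0 and the day 2 minus day 1 contrast. A new change had a day 1 adjusted p of 0.05 or more. The fit was tested on simulated data. For lists, the probe set with the highest mean stood for a gene, and no set test was run.

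The members and lists were chosen with earlier results of these data known. Named genes are the 10 largest rises and falls, the 8 largest of each of 6 classes, up to 4 called members of a list and genes fixed by name; others are said to be chosen after their values were seen. Some of these are left out to keep the text short. Further probe sets of a named gene are not all described, and some of them were not called.

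Deviations from the day means of same-numbered arrays correlated at 0.573, 0.497 and 0.473 between days 1 and 2. The highest correlations with an array of another number were -0.460, 0.265 and 0.350. Between days 0 and 1 same-numbered arrays correlated at 0.214, 0.333 and 0.0609, and other-numbered ones at up to -0.0785, 0.0564 and 0.0638. By the rule used the numbers pair arrays. The labels do not say so, and replicate 1 stood apart on every day, so a pairing is uncertain. The main fit holds no block. The fit with replicate number as a block is reported beside a result whose class it changes, or a count it moves by over 1.5 times. Other alternatives were scaling, a filter, eBayes settings, the arrays fitted, the minimum change and leaving out arrays. Promoter sequences were not analysed here.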

Additional observations from a re-analysis of the deposited data

How the results depend on the processing

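The 3 arrays per day limit the precision of every value, and levels near the lower quartile bound what can be read as a fold. Scaling and the eBayes settings moved no count of calls or of a class by over 1.5 times. The replicate block raised the calls with a small day 1 change from 80 to 132 and kept all 729 calls in a total of 966. Among the lists described it raised fibrillar matrix genes called from 6 to 10, integrins from 1 to 2 and inflammatory mediators from 0 to 1. The share of rises among calls was 67.1%, and 62.4% to 66.6% with another scaling. In the fit of the 6 arrays of days 1 and 2 alone, falls were 147 in place of 240. Of the 99 named called probe sets, 48 stayed in their class in all 9 fits that left out an array of days 0 to 2, and 93 with the block.

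With no minimum change the counts were 1461 calls (868 rises, 593 falls), 303 reversed rises, 227 reversed falls, 208 further rises, 123 further falls, 433 new rises, 167 new falls and 0 with a small day 1 change, by construction. With a minimum of 1.5 they were 319 (233 and 86), 23, 26, 51, 24, 126, 23 and 46. With replicates 2 and 3 only, an alternative chosen after seeing the data, they were 1321 (822 and 499), 167 reversed rises, 169 reversed falls, 170 further rises, 144 further falls and 244 with a small day 1 change; new rises and falls moved less. With an array left out, calls ran from 451 to 986, rises from 326 to 583, falls from 120 to 403, reversed rises from 32 to 138, reversed falls from 50 to 106, further rises from 75 to 104, further falls from 37 to 94, new rises from 152 to 309, new falls from 29 to 117 and small day 1 changes from 50 to 132.

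The 99 named called probe sets were chosen for changes of at least 1 in size, so a turn was unlikely from the start. None of them changed direction in any setting run. Genes with small, uncalled changes did. With replicates 2 and 3 only, the changes of PSMD4, BCL2L1, HBM and FOXL2 became -0.066, 0.185, 0.026 and 0.074. With an array left out, changes ran from -0.72 to 0.20 for BCL2L1, -0.62 to 0.012 for FAS, -0.27 to 0.025 for BMP15, -0.045 to 0.14 for AHSP, -0.067 to 0.20 for STAR, -0.13 to 0.033 for HBM, -0.10 to 0.070 for FOXL2 and -0.0073 to 0.26 for ZP3.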

Other observations

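PSAT1 and PHGDH, enzymes of serine synthesis, rose on day 2. PSAT1 read 8.28, 8.09 and 8.30 on day 1 and 10.84, 10.65 and 10.71 on day 2, a rise of 2.51 ± 0.43 (adjusted p = 0.00401), with no overlap between the days. Its day 1 rise passed the test narrowly (adjusted p = 0.0427) and had an adjusted p of up to 0.151 with an array left out, so that in 8 of 9 such fits it was a new rise. PHGDH, the first enzyme of the pathway, read 7.48, 7.55 and 7.58 and then 8.87, 8.80 and 9.08 (1.38 ± 0.13, adjusted p = 7.15e-05), a new rise in all of them. PSPH, the last enzyme of the pathway, was not called, with a change of 0.65 ± 0.28 (adjusted p = 0.226). Of the 16 genes of amino acid response and tRNA charging, 10 had risen on day 1, where 6.47% of all probe sets rose. On day 2, 3 rose (2.96% of all genes were called higher) and 1 fell (1.40% lower), with a median change of -0.12.

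Genes of luteinization moved in both directions, with 2 of 11 up (ADAMTS1 and LHCGR; 2.96% of all genes were called higher) and 2 down (PGR and PTGES; 1.40% lower). Without day 2 replicate 2 or 3, 2 of the 11 were called. PGR, the progesterone receptor, read 6.55, 6.96 and 7.15 on day 1 and 5.77, 5.41 and 5.32 on day 2, a change of -1.38 ± 0.26 (adjusted p = 0.00656). PTGES, which makes prostaglandin E, fell by 1.11 (adjusted p = 0.0204), a call lost in 4 of 9 fits that left out an array (day 1 replicate 1 or 2, day 2 replicate 2 or 3), with an adjusted p of up to 0.0897. PPARG, a lipid-sensing nuclear receptor, read 9.42, 8.46 and 8.23 and then 7.69, 6.47 and 5.52 (a change of -2.14 ± 0.57, adjusted p = 0.0402). The days did not overlap, but PPARG was called a new fall in 1 of 9 such fits and not called in 7 of them (day 0 replicate 2 or 3, any array of day 1, day 2 replicate 2 or 3), with an adjusted p of up to 0.186. With replicate number as a block it was a further fall. None of 21 inflammatory mediators and none of 18 interferon-stimulated genes was called by limma, where 4.36% of all genes were called in either direction. On both days 6 of these mediators and 2 of the interferon-stimulated genes were in the dim range. With replicate number as a block 1 inflammatory mediator was called higher.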
